A study of Saccharomyces cerevisiae with 18 samples.

Results

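The small nucleolar RNA (snoRNA) genes of Saccharomyces cerevisiae were described across 3 strains and 3 kinds of RNA sequencing library. They were taken by name, as every gene in the expression table that is called snR followed by a number, which gave 81 of 7126 genes. The name also takes in 5 genes for spliceosomal RNAs (snR6, snR7-S, snR7-L, snR14 and snR19), which leaves 76 snoRNA genes, 47 with C/D boxes and 29 with H/ACA boxes. In the R64 reference annotation 8 of the 76 lie inside an intron of a host gene on the same strand, 17 lie in 5 clusters with gaps under 500 nt, and 51 stand alone.

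The study asked how the paralogs of the ribosomal protein uL30, encoded by RPL7A and RPL7B, affect ribosome production and translation. Strain R28P-30B carried the cDNA of RPL7B, and strain R28P-30A the cDNA of RPL7A, on a LEU2 plasmid with the RPS28A promoter and the ADH1 terminator. In both, the chromosomal copies were listed as deleted (rpl7aD::URA3 rpl7bD::KMX), so that the plasmid was the sole source of uL30. WT was listed as JPY10H3, MATa his3D200 leu2D0 lys2D0 ura3D0. All strains had the BY background and grew at 30 °C to log phase, in Yc media by one label and synthetic minimal media by another. Each strain had 2 replicates, each with a total extract, a light fraction and a heavy fraction, 18 libraries in all. The light fraction held free subunits and monosomes (40S, 60S and 80S), and the heavy fraction tetrasomes and larger polysomes. Libraries of a strain with the same replicate number are called a culture here. The paper's methods describe total RNA and polysomes from cultures of different volume, so a total extract and its fractions may come from separate cultures. RNA was enriched on oligo(dT) before sequencing.

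C/D box snoRNAs direct 2'-O-methylation of ribosomal RNA with the methyltransferase Nop1, and H/ACA box snoRNAs direct pseudouridylation with the synthase Cbf5; a few, such as U3, U14, snR30 and snR10, act in cleavage of the precursor rRNA. In yeast most snoRNAs are transcribed by RNA polymerase II from their own promoters, singly or in clusters cut apart by Rnt1, and a few are released from spliced introns. Mature snoRNAs have no poly(A) tail, while precursors and RNAs marked for decay can carry a short one, so enrichment for poly(A) selects against the mature pool. A read on an intron-hosted snoRNA gene can come from the mature snoRNA, the excised intron or the unspliced host transcript, and these cannot be told apart in counts per gene.

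The chromosomal strain check comes first because 3 snoRNA genes sit at the RPL7 loci. snR39 lies in the second intron of RPL7A (chrVII:365163-365251, minus strand, R64) and snR59 in the second intron of RPL7B (chrXVI:173827-173904, plus strand). snR39B (chrVII:366374-366469, minus strand) is not in an intron and lies 377 nt upstream of RPL7A on the same strand. The sequences below, read from the RefSeq R64 genome 5′ to 3′, are printed because the 3 genes carry guides for neighbouring sites. Capitals mark the longest stretch that pairs with the annotated target region of 25S rRNA.
snR39: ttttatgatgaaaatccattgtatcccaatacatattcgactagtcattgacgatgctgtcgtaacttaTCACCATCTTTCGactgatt
snR59: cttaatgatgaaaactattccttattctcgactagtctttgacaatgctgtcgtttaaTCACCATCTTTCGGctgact
snR39B: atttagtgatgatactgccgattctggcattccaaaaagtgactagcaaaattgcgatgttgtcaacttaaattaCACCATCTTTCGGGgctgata

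snR39 and snR59 are annotated to guide the same methylation, at position 807 of 25S rRNA, and snR39B that at position 805. Their guide stretches are 13 nt in snR39, 14 nt in snR59 and 14 nt in snR39B, and they pair with overlapping runs of 25S rRNA (positions 804 to 816, 803 to 816 and 802 to 815). In each, the fifth nucleotide before the D box CTGA pairs with the annotated position. Paralogous ribosomal protein genes thus host snoRNAs for one site. The longest run shared by snR39 and snR59 is 14 nt, by snR39 and snR39B 12 nt, and by snR59 and snR39B 13 nt.

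The study lists primers for deleting each gene, and their genomic arms show how much of each locus a replacement would remove. They are printed here because 1 of the 2 spans holds more than the host gene, in the orientation in which each primer reads.
RPL7A_dgene_F1: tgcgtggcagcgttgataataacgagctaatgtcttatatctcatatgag
RPL7A_dgene_R: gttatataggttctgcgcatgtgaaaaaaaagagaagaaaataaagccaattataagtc
RPL7B_dgene_F: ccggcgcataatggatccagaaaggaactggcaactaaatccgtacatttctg
RPL7B_dgene_R: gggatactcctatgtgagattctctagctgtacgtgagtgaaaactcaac
Each arm matched the R64 genome once. Between the RPL7A arms lie 2329 nt (chrVII:364220-366548) with RPL7A, snR39 and also snR39B. Between the RPL7B arms lie 1878 nt (chrXVI:172949-174826) with RPL7B and snR59.

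In R28P-30B the 3 snoRNAs of these loci were at or near 0 reads. snR39 had 0 and 0 reads in R28P-30B total extracts, against 356 and 354 in WT, at least 211-fold lower (the bound takes 3 reads over both libraries). Its light fractions had 1 and 0 reads in R28P-30B and 934 and 819 in WT, a ratio of 1701 with a 95% counting interval of 305 to 67208. The heavy fractions had 0 and 0 reads in R28P-30B against 45 and 88 in WT, at least 40.8-fold lower. Intervals and bounds of this kind cover counting error only.

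snR39B was at 0 reads in all 6 R28P-30B libraries, against WT reads of 187 and 211 in total extracts, 164 and 143 in the light and 18 and 25 in the heavy fraction. Over the 3 fractions together it was at least 231-fold lower in R28P-30B. snR59 had 1 read in the 6 R28P-30B libraries, in 1 heavy fraction, against 3.37 and 3.67 CPM in WT total extracts (90 and 103 reads), with 6.85 and 8.52 CPM in the light and 0.725 and 0.803 CPM in the heavy fraction. It was at least 57.5-fold lower in total extracts and at least 129-fold lower in light fractions of R28P-30B. For the 3 genes no R28P-30B library overlapped a WT library. Each passed limma as lower in each fraction (adjusted p between 1.57e-11 and 0.000469). The 3 genes lie between the arms of the listed deletion primers and had 0 or 1 read in each R28P-30B library. These p-values therefore add no support beyond the counts.

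The libraries labelled R28P-30A went against that label at the same genes. snR39 had 349 and 312 reads in total extracts labelled R28P-30A and 356 and 354 in WT, snR59 87 and 82 against 90 and 103, and snR39B 178 and 186 against 187 and 211. Summed over the 6 libraries of a strain, RPL7B had 730928 reads in R28P-30B, 40519 in those labelled R28P-30A and 58984 in WT, and RPL7A had 930, 358251 and 295415. URA3, the marker of the listed RPL7A deletion, had 47409 reads in R28P-30B, 11 in those labelled R28P-30A and 3 in WT, and LEU2, the plasmid marker, had 96411, 13091 and 6. The intron-hosted snoRNAs of both loci, the RPL7B mRNA and URA3 were thus not at the levels that the listed genotype implies, while LEU2 was above WT. These libraries are called "labelled R28P-30A" throughout, and no direction drawn from them is a direction for that genotype.

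**Figure D1:**
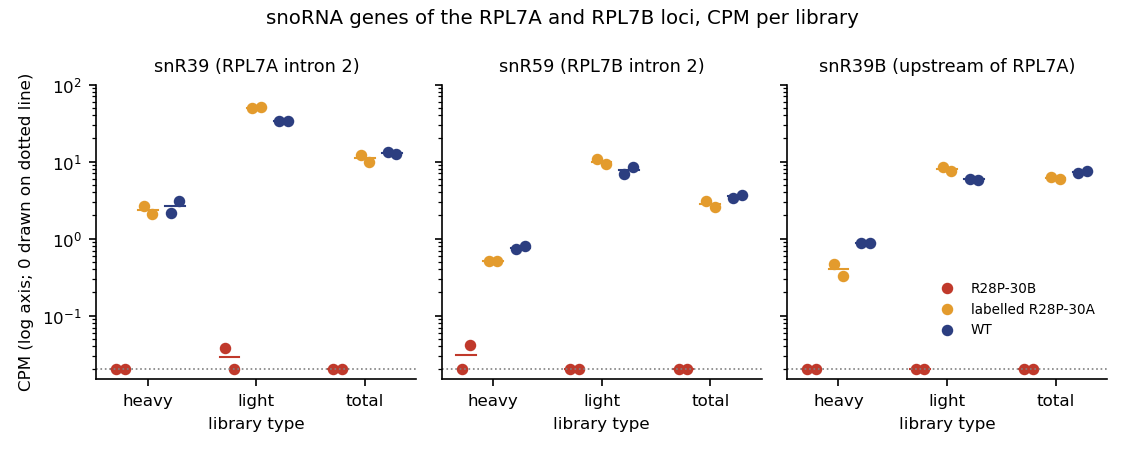
Reads scaled to library size (CPM, log axis with a step for 0) of snR39, snR59 and snR39B in each library, by fraction, with R28P-30B left, labelled R28P-30A in the middle and WT right. Each point is 1 library. R28P-30B points lie at 0 or at 1 read, and the points labelled R28P-30A lie beside those of WT.

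The 18 libraries held between 17373839 and 31525927 reads on genes, with a median of 26575904. SnoRNA genes took 0.0076% to 0.0973% of them. Of the 76 genes 59 had at least 3 reads in every library, and 65 did when the 3 RPL7 locus genes are not asked for in R28P-30B. Where the labels mark separate cultures, limma p-values rest on the spread between the 2 cultures of a strain, pooled over the 3 strains and moderated across genes. The libraries labelled R28P-30A thus enter the spread used for R28P-30B against WT. Both strain comparisons share the WT libraries.

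Summed over all snoRNA genes, total extracts had 583 and 544 CPM in R28P-30B, 626 and 643 in those labelled R28P-30A and 682 and 574 in WT. The strains lay close together there, with 563 ± 27.0, 634 ± 12.2 and 628 ± 76.2 CPM (mean ± SD, n = 2 each). Light fractions had 462 and 509 CPM in R28P-30B, 973 and 876 in those labelled R28P-30A and 653 and 705 in WT, so the strains did not overlap. Heavy fractions had 76.0 and 92.9 CPM in R28P-30B, 117 and 100.2 in those labelled R28P-30A and 107 and 115 in WT. These sums are shares of poly(A)-enriched reads, and a bulk library cannot tell less RNA per cell from fewer cells that make it.

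Levels of the genes ran over a wide range. Per length, the mean over the 18 libraries ran over 58.8-fold, with a median of 27.8 CPM per kb over the 76 snoRNA genes, against 60.2 over 6007 coding genes. Of the coding genes 74.5% lay above the median snoRNA gene and 22.6% above the highest one, and 12 snoRNA genes lay above the median coding gene. Most snoRNA genes thus lay in the lower part of the range of mRNAs, and some well inside it.

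Intron-hosted snoRNAs stood highest per length, with a median of 88.9 CPM per kb (22.7 to 140.3, 8 genes), against 28.1 for clustered and 25.1 for single genes, in the mean over all libraries. The light fraction set most of that gap. In total extracts the medians of the 3 classes were 39.1, 36.6 and 34.3 CPM per kb in R28P-30B and 59.1, 38.6 and 37.3 in WT. In light fractions the intron-hosted median was 38.4 in R28P-30B, 313 in those labelled R28P-30A and 184 in WT, where clustered genes had 25.6, 42.4 and 30.4. The intron-hosted medians of R28P-30B are over all 8 genes and are lowered by snR39 and snR59, which had almost no reads there. In that mean snR39, in the RPL7A intron, had 140.3 CPM per kb, although its 6 R28P-30B libraries held 1 read in total. Its rank came from the light fraction, with 376 CPM per kb in WT, while in WT total extracts snR4, a C/D RNA, had 165 and snR39 146. After it in the mean over all libraries came snR44 in the RPS22B intron (125), snR33 (120.3), snR24 in the ASC1 intron (105), snR18 in the EFB1 intron (101), snR31 (100.3) and snR4 (98.3). snR33 and snR31 are H/ACA guides from single genes. snR57, first in its cluster, had 78.1, snR54 in the IMD4 intron 76.7 and the single C/D gene snR68 73.2 CPM per kb.

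Few reads were assigned to 3 of the spliceosomal RNAs. snR7-S, the short form of U5, had 0 reads in 18 libraries, which allows up to 3, snR7-L had 14 and snR6 (U6), which RNA polymerase III transcribes, had 24. snR7-S and snR7-L overlap on the same strand, and a read on both may be assigned to neither. The deposited TPM, which does not follow these counts, gives snR7-L 9.03 to 14.7 TPM in total extracts, so no level of U5 is drawn from its counts. snR14 (U4) had 272 reads and snR19 (U1) 4890, and snR19 lay highest among them with 18.9 CPM per kb. Among snoRNA genes the fewest reads were on snR58 (105), snR53 (112) and snR65 (165), C/D guides named here after their values were seen, and the most on snR86 (16082), snR44 (11237), snR30 (10430) and snR31 (10087).

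Length, base composition and runs of A did not order the levels. Over the 76 snoRNA genes the rank correlation with CPM per kb was 0.03 for length, 0.05 for the longest run of A and 0.01 for GC content, as a description of genes measured in the same libraries. The boxes themselves separated the classes on the sense strand. The C box TGATGA lay in the first 20 nt of 36 of 47 C/D genes (76.6%) and of 1 of 29 H/ACA genes, and the D box CTGA in the last 20 nt of 45 of 47 (95.7%) and of 2 of 29. ACA lay in the last 10 nt of 18 of 29 H/ACA genes (62.1%) and of 7 of 47 C/D genes. A missing match says only that these letters are not in that window.

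Within the clusters the levels did not follow a single pattern. The plot of levels along the clusters, whose genes were described after their values were seen, gives WT values per fraction, and the values here are CPM per kb over all libraries. On chromosome XII snR57 had 78.1, snR55 28.1 and snR61 24.6, and on chromosome XVI snR41 had 60.6, snR70 44.1 and snR51 28.9, so in this mean the first gene lay highest and the last lowest in both. In WT snR61 lay above snR55 in each fraction, with 38.4 against 32.4 in total extracts, so the decline past the first gene of the chromosome XII cluster was not seen there. The 7 genes on chromosome XIII ran from snR78 (23.1) over snR77 (29.1) and snR76 (33.5) to snR75 (12.5), snR74 (8.51), snR73 (5.71) and snR72 (7.76). The pair on chromosome X went the other way, with snR190 at 12.9 and snR128 (U14) at 28.7, and on chromosome V snR67 had 49.7 and snR53 2.75.

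**Figure D2:**
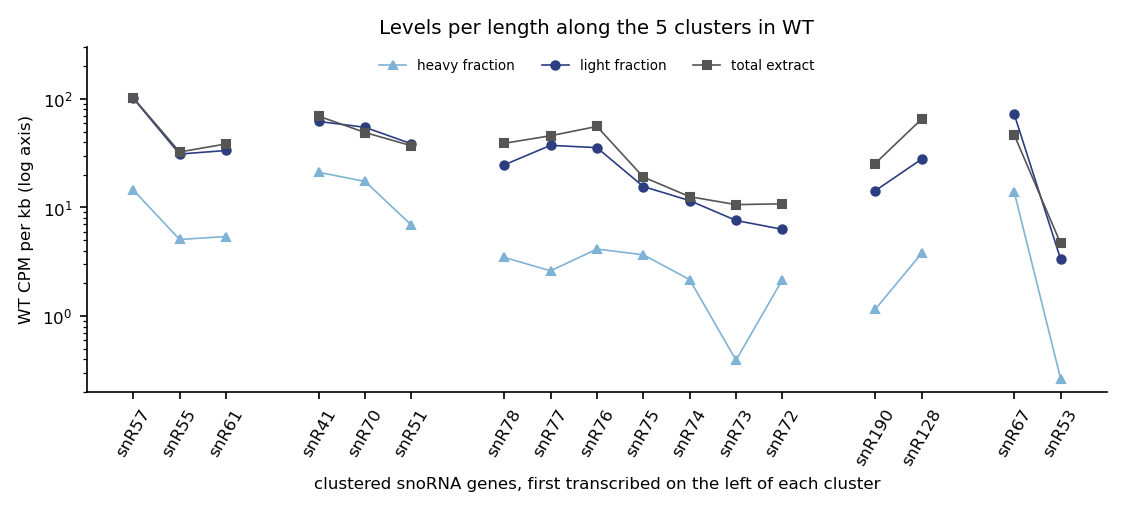
Mean CPM per kb (log axis) of the 17 clustered snoRNA genes in WT (n = 2 libraries a point), by position along each of the 5 clusters, with the heavy fraction as triangles, the light fraction as circles and the total extract as squares. The first gene of the clusters on chromosomes XII, XVI and V lies highest, and the heavy fraction lies lowest for every gene.

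All tested snoRNA genes were lower in heavy than in light fractions. Of the 81 genes 78 passed the filter on low values (mean over 0.2 CPM; snR7-S, snR7-L and snR6 did not), and all 78 were lower in the mean of the 3 strains by limma on log2(CPM + 0.1), adjusted p under 0.05. Over all 6376 genes tested 59.6% were lower and 31.1% higher. The median difference was −2.44 on the log2 scale for the snoRNA and spliceosomal genes and −0.35 for all genes, and TMM scaling moved the median of all genes to −0.02 and again called all 78 lower. Fitted to the recovered reads with edgeR, 76 were lower.

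Single genes ran from −4.15 for snR17a, which encodes U3, to −1.10 for snR83, named here after its value was seen. snR17a had 0.463 and 0.462 CPM in R28P-30B heavy fractions, against 8.32 and 6.19 in its light fractions. snR24, a C/D guide from the ASC1 intron, followed with −4.05 (SE 0.13, adjusted p = 9.59e-15), snR54 with −3.64 and the U1 RNA snR19 with −3.59. In the mean of the 3 strains the 6 intron-hosted genes outside the RPL7 loci had a median of −3.43. The 67 other snoRNA genes outside these loci had −2.43. In R28P-30B alone the sums of the 2 sets had the reverse order, as given below with the light fraction. The other noncoding RNAs LSR1 (U2), SCR1 (signal recognition particle), RPR1 (RNase P), NME1 (RNase MRP) and TLC1 (telomerase) were also all lower, by values from −3.69 to −2.44.

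The summed snoRNA level in the light fraction was 6.08 and 5.48 times that in the heavy fraction in the 2 cultures of R28P-30B, 8.33 and 8.75 times in those labelled R28P-30A and 6.11 and 6.15 times in WT. R28P-30B and WT were close in this ratio. Without the libraries labelled R28P-30A all 78 were still lower in heavy fractions.

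Light fractions and total extracts separated intron-hosted snoRNAs from the rest. The paper's methods purify total RNA and gradient RNA by different steps, with a lithium chloride precipitation only for the gradient fractions. The part of this difference in the ratios was not tested. In the mean of the 3 strains 23 of 78 genes were higher and 37 lower in light fractions than in total extracts by limma, where 46.5% of all genes were higher and 37.2% lower. All 8 intron-hosted genes were higher, and of the 68 other snoRNA genes 15 were higher and 35 lower. These calls are on CPM, and the deposited TPM gave other ratios, as described with the processing. snR24 led with 1.80 (SE 0.08), followed by snR191, an H/ACA guide from the NOG2 intron, with 1.45, snR39 with 1.25 and snR54 and snR68 with 1.21 each. The fits of snR39, snR59 and snR39B include R28P-30B libraries with 0 or 1 read, so their mean over strains understates the other strains. snR13 (−1.58), snR128 (−1.37), snR14 (−1.24) and snR37 (−1.19) were lowest, and without the libraries labelled R28P-30A the genes past the threshold numbered 62.

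This enrichment of intron-hosted snoRNAs in light fractions was absent from R28P-30B sums and present in the sums of the other cultures. Summed over the 6 intron-hosted genes outside the RPL7 loci, the light fraction was 0.851 and 0.926 times the total extract in the 2 cultures of R28P-30B, 5.11 and 3.98 times in those labelled R28P-30A and 2.55 and 3.25 times in WT. For the 67 other snoRNA genes the same ratio was 0.788 and 0.937 in R28P-30B, 1.21 and 1.06 in those labelled R28P-30A and 0.798 and 1.02 in WT. Intron-hosted and other genes thus had like ratios in R28P-30B and unlike ratios in the other cultures. Against the heavy fraction, the light fraction of the 6 genes was 4.28 and 4.19 times as high in R28P-30B, 15.0 and 13.99 times in those labelled R28P-30A and 11.7 and 11.02 times in WT. For the 67 other genes it was 6.35 and 5.64 times, 6.90 and 7.34 times, and 5.25 and 5.32 times in the same order. The 6 genes thus lay below the others in R28P-30B and above them in the other cultures.

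**Figure D3:**
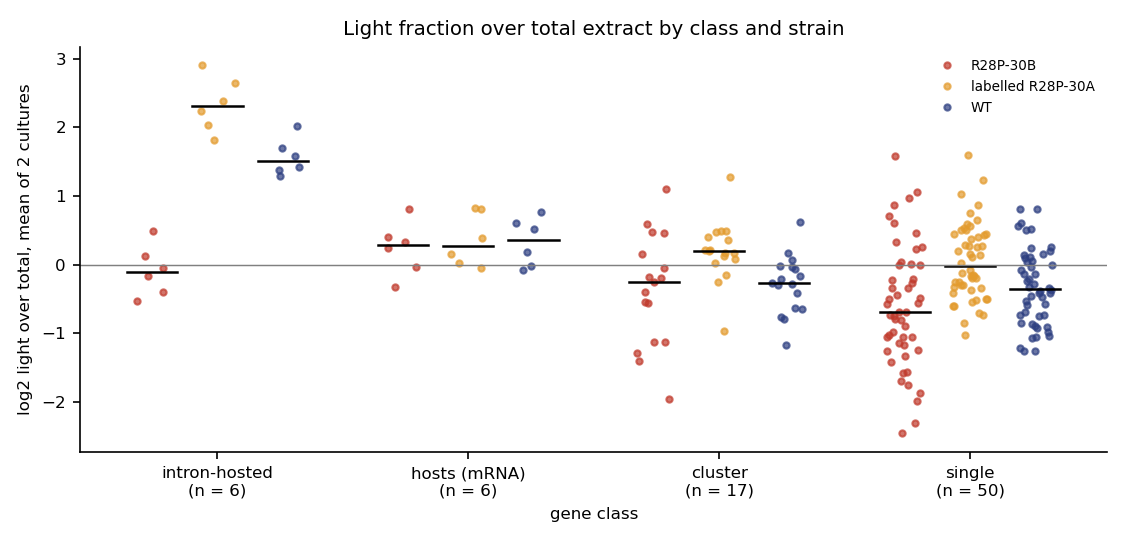
Light fraction over total extract (log2 ratio of CPM + 0.1, mean of 2 cultures) for snoRNA genes outside the RPL7 loci and for the mRNAs of the 6 host genes, by class and strain, each point 1 gene and each bar a median. Intron-hosted genes have a median of −0.11 in R28P-30B, 2.31 in those labelled R28P-30A and 1.505 in WT, while their hosts have 0.29, 0.27 and 0.35.

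The 6 genes are the C/D guides snR18, snR24, snR38 and snR54 and the H/ACA guides snR44 and snR191. Their hosts encode translation elongation factors (EFB1 for snR18, TEF4 for snR38), the ribosome-bound Asc1 (ASC1, snR24), a small subunit protein (RPS22B, snR44), an inosine monophosphate dehydrogenase (IMD4, snR54) and a GTPase of 60S assembly (NOG2, snR191). 3 of these guides are printed from the RefSeq R64 genome, 5′ to 3′, with the C box TGATGA and the D box CTGA in capitals, beside snR68, a single C/D gene that moved the opposite way in the same libraries, so that the box layout of both can be seen.
snR18: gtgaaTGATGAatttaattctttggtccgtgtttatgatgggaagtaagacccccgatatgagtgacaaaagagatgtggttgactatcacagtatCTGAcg
snR38: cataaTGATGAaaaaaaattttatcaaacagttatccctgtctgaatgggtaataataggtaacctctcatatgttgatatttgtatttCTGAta
snR54: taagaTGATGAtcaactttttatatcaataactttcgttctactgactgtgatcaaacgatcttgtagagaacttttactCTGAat
snR68: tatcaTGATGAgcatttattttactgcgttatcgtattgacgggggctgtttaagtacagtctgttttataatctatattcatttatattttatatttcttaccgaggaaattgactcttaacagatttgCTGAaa
They lie at chrI:142367-142468 (plus strand), chrXI:283185-283279 (plus), chrXIII:163535-163620 (minus) and chrIX:97111-97246 (plus). The C box starts at nucleotide 6 in all 4.

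snR24 guides methylation of 25S rRNA at C1437, C1449 and C1450. It had 6.88 and 5.12 CPM in R28P-30B light fractions, 38.4 and 34.6 in those labelled R28P-30A and 21.4 and 25.7 in WT. The strains did not overlap, and R28P-30B was lower than WT by 1.96 on the log2 scale (log2 difference −1.96, SE 0.15, limma adjusted p = 4.15e-05). Its total extracts had 4.42 and 3.998 CPM in R28P-30B, 5.13 and 4.47 in those labelled R28P-30A and 6.33 and 5.20 in WT, so R28P-30B lay below WT there too, by a difference that did not pass the threshold.

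snR38, which guides methylation at G2815 of 25S rRNA, had 1.78 and 2.25 CPM in R28P-30B light fractions, 16.2 and 14.3 in those labelled R28P-30A and 6.06 and 7.09 in WT. In total extracts it had 3.04 and 2.82 CPM in R28P-30B, 2.53 and 3.20 in those labelled R28P-30A and 2.13 and 2.81 in WT. Light fractions differed between all strains without overlap, while R28P-30B total extracts lay just above those of WT. The light difference from WT was −1.66 (SE 0.16, limma adjusted p = 0.000112) in R28P-30B and 1.202 in those labelled R28P-30A.

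snR18, the U18 guide for A649 and C650 of 25S rRNA, had 7.07 and 7.75 CPM in R28P-30B light fractions, 37.1 and 32.3 in those labelled R28P-30A and 20.1 and 25.1 in WT. Its total extracts had 8.98 and 7.63 CPM in R28P-30B, 7.73 and 9.01 in those labelled R28P-30A and 7.12 and 6.58 in WT, so here R28P-30B lay above WT, although the difference did not pass the threshold (limma adjusted p between 0.0501 and 0.68 for the total extracts of the 6 genes). snR44, which guides pseudouridylation at U1056 of 25S and U106 of 18S rRNA, had 17.2 and 17.5 CPM in R28P-30B light fractions, 84.9 and 74.3 in those labelled R28P-30A and 48.8 and 55.5 in WT. In total extracts snR44 had 24.2 and 21.9 CPM in R28P-30B, 21.9 and 23.2 in those labelled R28P-30A and 21.6 and 20.8 in WT. Both were lower in R28P-30B light fractions than in WT, by log2 differences of −1.59 (SE 0.13, limma adjusted p = 4.92e-05) for snR18 and −1.58 (SE 0.094, limma adjusted p = 1.28e-05) for snR44.

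snR54, the guide for A974 of 18S rRNA, had 4.84 and 4.71 CPM in R28P-30B light fractions, 27.7 and 21.5 in those labelled R28P-30A and 11.1 and 14.3 in WT. snR191, which guides pseudouridylation at U2258 and U2260 of 25S rRNA, had 4.69 and 5.002 CPM in R28P-30B, 24.9 and 23.0 in those labelled R28P-30A and 11.1 and 12.8 in WT. The order of the strains was the same as for the other 4 genes, without overlap. The differences of R28P-30B from WT were −1.38 for snR54 (SE 0.16, limma adjusted p = 0.000254) and −1.28 for snR191 (SE 0.11, limma adjusted p = 8.84e-05). Total extracts of snR54 had 4.82 and 5.09 CPM in R28P-30B, 4.64 and 5.55 in those labelled R28P-30A and 5.17 and 4.13 in WT, and those of snR191 had 4.45 and 4.36, 2.88 and 4.85, and 4.16 and 3.67 CPM in the same order.

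**Figure D4:**
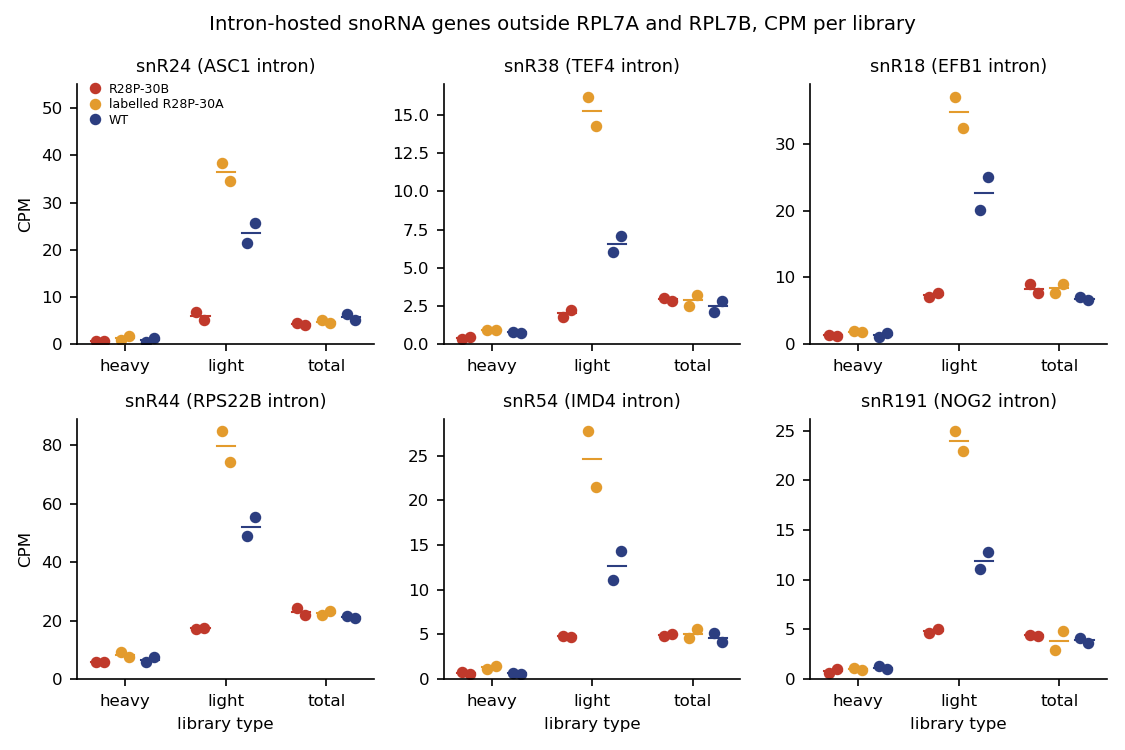
CPM of the 6 intron-hosted snoRNA genes outside the RPL7 loci in each of the 18 libraries, by fraction, with R28P-30B left, labelled R28P-30A in the middle and WT right; points are libraries and bars are means of 2. In light fractions R28P-30B lies lowest and the libraries labelled R28P-30A highest in all 6 panels, and total extracts of the strains lie close together.

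The ratio of light fraction to total extract was tested between libraries of the same replicate number, a comparison added after the data were seen. In R28P-30B it was lower than in WT for all 6 genes by limma, by log2 differences of −1.91 for snR38, −1.86 for snR18, −1.70 for snR44, −1.52 for snR24, −1.48 for snR54 and −1.45 for snR191 (adjusted p between 3.63e-06 and 0.000553), and each passed the threshold in all 14 alternatives run. Over all 78 tested genes 7 were higher and 23 lower, where 10.4% of all genes were higher and 15.5% lower. As shares of the 78 that is 8.97% and 29.5%. 2 of the 23 are snR39 and snR59, whose R28P-30B values rest on 0 or 1 read. The count of 30 calls fell to 14 without WT replicate 2. snR80 (−1.58) and snR3 (−1.57), single H/ACA guides, were lower by as much as the intron-hosted genes, and snR68 (0.77), snR62 (0.76), snR55 (0.65), snR41 (0.61) and snR76 (0.59) were highest. Of these 5 only snR68 passed without any 1 culture. Without R28P-30B replicate 2 the others had 0.82 (snR62), 0.66 (snR55), 0.54 (snR41) and 0.48 (snR76) and did not pass.

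In the libraries labelled R28P-30A the light over total ratio went the other way. By limma 18 genes were higher than WT and 0 lower, where 21.1% of all genes were higher and 4.78% lower. The 18 are 23.1% of the 78, near the share of all genes. snR191 (1.06), snR38 (0.99), snR24 (0.89), snR54 (0.82) and snR44 (0.52) were among the 18, and snR18 had 0.34 (adjusted p = 0.196) and was not. snR17a (1.17), snR80 (1.08) and snR83 (0.91) were higher too. TMM scaling, which moved the median of all genes from 0.12 to −0.03, gave 11 higher and 2 lower, and edgeR 14 and 1. The 18 calls became 5 without R28P-30A replicate 1 and 7 without WT replicate 1. Without R28P-30A replicate 1 snR191 (0.63), snR38 (0.74), snR54 (0.51) and snR44 (0.39) did not pass, and without WT replicate 1 snR24 (0.62), snR54 (0.47) and snR44 (0.40) did not.

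The mRNAs of the 6 hosts did not follow. In R28P-30B light fractions EFB1 differed from WT by 0.10, ASC1 by −0.03, RPS22B by −0.13 and IMD4 by −0.12 on the log2 scale, and none passed the threshold (limma, adjusted p between 0.0763 and 0.646). TEF4 was higher by 0.16 (adjusted p = 0.041) and NOG2 lower by 0.33 on the log2 scale (−0.33, adjusted p = 0.00496). Of the light over total ratios only that of NOG2 was lower than in WT (−0.30, adjusted p = 0.0173), among these 6 hosts. For each gene the snoRNA thus differed by far more than its host.

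Over all members, R28P-30B light fractions had 9 genes higher and 36 lower than WT by limma, where 17.5% of all genes were higher and 26.5% lower. As shares of the 78 tested that is 11.5% higher and 46.2% lower. The 36 include snR39, snR59 and snR39B, which had almost no reads in R28P-30B. TMM scaling and edgeR each gave 12 higher and 33 lower. Of the 17 clustered genes 5 were higher and 4 lower, and of the 50 single genes other than snR39B 4 were higher and 22 lower, with a median of −0.39 over the 67 genes outside introns, against −0.04 for all genes. Outside introns 7 C/D genes were higher and 15 lower of 40, and 2 H/ACA genes higher and 11 lower of 27. The classes were counted, and the difference between them was not tested.

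Outside introns and the RPL7 loci, the C/D guide snR52 had 0.189 and 0.246 CPM in R28P-30B light fractions (5 and 6 reads) against 0.718 and 1.75 in WT (20 and 43 reads), which is −1.96 (SE 0.39). It passed without any 1 library, but its size rests on WT, with −2.55 without WT replicate 1 and −1.37 without WT replicate 2, so its place among the lowest genes is not fixed. snR80 had 1.55 and 1.64 CPM in R28P-30B against 6.06 and 6.03 in WT, which is −1.86, and snR3 had 1.89 and 2.21 against 7.39 and 6.68, which is −1.73. snR80 and snR3 are H/ACA guides of single genes, and their R28P-30B total extracts had 3.53 and 3.32 and 10.1 and 10.9 CPM, against 4.19 and 4.16 and 12.8 and 10.7 in WT. snR13 was lower by 1.63 on the log2 scale (−1.63). As for the intron-hosted genes, the groups did not overlap in light fractions.

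A few C/D genes were higher. snR68, which guides methylation at A2640 of 25S rRNA, had 22.9 and 25.9 CPM in R28P-30B light fractions, 19.9 and 21.6 in those labelled R28P-30A and 14.6 and 13.4 in WT, a log2 difference of 0.80 for R28P-30B (SE 0.10, limma adjusted p = 0.000464). snR41 (0.73), snR55 (0.58), snR70 (0.52) and the H/ACA guide snR43 (0.57) were higher as well. The snR55 call was lost without R28P-30B replicate 2 (0.56, limma adjusted p = 0.0637). snR41 and snR70 are neighbours in the cluster on chromosome XVI. The third gene of that cluster, snR51, had 3.29 and 3.48 CPM in R28P-30B light fractions, against 3.77 and 4.48 in WT.

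Among snoRNAs of rRNA cleavage, snR30, an H/ACA RNA needed for 18S rRNA, had 10.8 and 12.1 CPM in R28P-30B light fractions, 33.3 and 25.1 in those labelled R28P-30A and 25.6 and 31.8 in WT. It was lower in R28P-30B by limma in light fractions (−1.31, adjusted p = 0.000268), in heavy fractions (−0.66, adjusted p = 0.0275) and in total extracts (−0.43, adjusted p = 0.00953). snR128, which encodes U14, had 1.66 and 1.27 CPM in R28P-30B light fractions against 3.62 and 3.38 in WT (−1.21, limma adjusted p = 0.000937). snR10, an H/ACA RNA of early cleavage, had 2.75 and 2.41 CPM in R28P-30B total extracts against 5.47 and 3.88 in WT (−0.82, limma adjusted p = 0.00536), and its light fractions differed by −0.25 (adjusted p = 0.301). snR10 overlaps YGL088W on the same strand, so reads on the shared stretch cannot be told apart by strand. The light values of snR30 and snR128 passed without any 1 library. In total extracts snR30 (−0.23, adjusted p = 0.105) and snR10 (−0.57, adjusted p = 0.0737) did not pass without WT replicate 1, nor snR30 without R28P-30B replicate 2 (−0.37), and the heavy value of snR30 was lost without any 1 R28P-30B or WT library (adjusted p between 0.0541 and 0.188).

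The U3 genes snR17a and snR17b are nearly identical, and reads with several positions were kept, so their reads may be shared between them. snR17a had 8.32 and 6.19 CPM in R28P-30B light fractions, 26.6 and 19.4 in those labelled R28P-30A and 9.72 and 16.9 in WT. It was lower in R28P-30B (−0.83, limma adjusted p = 0.0256) and higher in those labelled R28P-30A (0.82, limma adjusted p = 0.0315). snR17b had 7.01 and 5.59 CPM in R28P-30B total extracts against 4.53 and 3.42 in WT (0.66, limma adjusted p = 0.0128). snR17a also overlaps IRC13 on the same strand. The 2 WT light fractions of snR17a lay apart, and its light calls depended on single libraries. The difference in R28P-30B was −0.43 without WT replicate 2 (adjusted p = 0.114) and −0.62 without R28P-30B replicate 2, and that in those labelled R28P-30A 0.43 without WT replicate 1 (adjusted p = 0.132) and 0.59 without R28P-30A replicate 1. The snR17b value was 0.49 without R28P-30B replicate 1 and 0.46 without WT replicate 2, neither past the threshold.

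Of the spliceosomal RNAs, snR19 (U1) had 8.17 and 7.30 CPM in R28P-30B light fractions against 14.1 and 16.6 in WT (−0.98, limma adjusted p = 0.00158). snR14 (U4) had 0.265 and 0.205 CPM against 0.538 and 0.489 (−0.88, limma adjusted p = 0.0524). The other noncoding RNAs were also lower there, with SCR1 at −1.28, LSR1 at −1.17, RPR1 at −0.77 and TLC1 at −0.40, while NME1 had −0.30 and did not pass.

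R28P-30B total extracts had 3 genes higher and 16 lower than WT by limma, where 11.2% of all genes were higher and 17.2% lower, with 5 and 12 under TMM scaling and 4 and 9 by edgeR. The share of lower genes, 20.5% of the 78, was near that of all genes. Beside the 3 RPL7 locus genes the largest falls were in snR69 and snR60 (−1.02 each), C/D guides, and snR8 (−0.86), an H/ACA guide. snR69 had 0.928 and 0.681 CPM in R28P-30B against 1.80 and 1.64 in WT. snR60 had 20 and 14 reads in R28P-30B against 49 and 34 in WT. It overlaps YJL047C-A on the same strand, so reads on the shared stretch cannot be told apart by strand. snR17b (0.66), snR83 (0.53) and snR86 (0.33) were higher. The 19 calls became 9 without R28P-30B replicate 2 and 9 without WT replicate 1. snR69 (−0.95) and snR60 (−0.73) did not pass without WT replicate 1, and snR17b (0.46), snR83 (0.26) and snR86 (0.23) did not without WT replicate 2.

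R28P-30B heavy fractions had 0 genes higher and 12 lower by limma, where 6.2% of all genes were higher and 12.1% lower, and TMM scaling and edgeR each left 0 and 5. The 12 are 15.4% of the 78, near the share of all genes. snR3 (−1.41), snR80 (−1.34), snR8 (−1.196) and snR49 (−0.90) followed the 3 RPL7 locus genes. snR3 had 0.232 and 0.378 CPM in R28P-30B against 0.725 and 1.26 in WT. The 12 calls became 5 without R28P-30B replicate 1, 4 without WT replicate 1 and 3 without WT replicate 2. Without WT replicate 2 neither snR3 (−1.05) nor snR80 (−1.32) passed in heavy fractions.

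In light fractions labelled R28P-30A 32 genes were higher and 1 lower than WT by limma, where 28.5% of all genes were higher and 8.78% lower. The 32 are 41.0% of the 78. TMM scaling, which moved the median of all genes from 0.11 to −0.03, gave 19 higher and 2 lower, and edgeR 20 and 2. snR72 (1.45), snR38 (1.202), snR56 (1.0045), snR191 (1.0007) and snR83 (0.97) were highest, and snR54 (0.95), snR24 (0.63), snR18 (0.62) and snR44 (0.61) were among the 32. snR8 was lower (−0.45). The 33 calls became 18 without R28P-30A replicate 1 and 21 without WT replicate 1. Without R28P-30A replicate 1, snR72 (1.41), snR56 (0.88) and snR24 (0.56) did not pass. snR8 did not pass without R28P-30A replicate 2 (−0.32) or without either WT library, and snR72 was 1.02 without WT replicate 2.

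Total extracts and heavy fractions labelled R28P-30A had 0 genes past the threshold by limma and by edgeR. In total extracts 4 genes had an unadjusted p under 0.05 by limma and 2 by edgeR, and 0.518% of all genes were higher and 0.0941% lower by limma. In heavy fractions these were 9 and 8 genes, with 0.0314% of all genes higher and 0% lower. The calls for these libraries against WT thus came from the light fraction.

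The ratio of heavy to light fraction, used in the study as a translation index, differed in R28P-30B for 18 genes by limma, 14 higher and 4 lower, where 10.8% of all genes were higher and 8.45% lower. 3 of the 14 are the RPL7 locus genes, which rest on 0 or 1 read. snR52 (1.92), snR24 (1.84), snR79 (1.73), snR18 (1.58) and snR44 (1.46) led the rest, and snR49 (−1.16), snR68 (−1.02), snR41 (−0.80) and snR33 (−0.57) were lower. The heavy fractions of snR79 held 7 and 5 reads in R28P-30B and 3 and 1 in WT. Those of snR52 held 4 and 3 against 2 and 7, so the sizes of both rest on few reads. A snoRNA has no open reading frame, so for these genes the index gives a place in the gradient only. The 18 calls became 10 without R28P-30B replicate 2, 7 without WT replicate 2 and 9 by edgeR. Without WT replicate 2, snR52 (1.74), snR68 (−0.89), snR41 (−0.64) and snR33 (−0.51) did not pass, and snR33 had −0.31 without R28P-30B replicate 1. snR24, snR18, snR44 and snR49 passed without any 1 culture.

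In the libraries labelled R28P-30A 0 genes were higher and 15 lower in the heavy over light ratio by limma, where 4.71% of all genes were higher and 22.6% lower. The 15 are 19.2% of the 78, below the share of all genes. snR72 (−1.66), snR161 (−1.64), snR85 (−1.57), snR39B (−1.41) and snR62 (−1.18) were lowest. TMM scaling, which moved the median of all genes from −0.14 to 0.03, left 7 and edgeR 6. The 15 calls became 7 without R28P-30A replicate 2 and 6 without WT replicate 1. The order of the 5 is not fixed, and of them only snR85 passed without any 1 culture (−1.89 to −1.24). snR72 ran from −2.41 without WT replicate 1 to −0.91 without WT replicate 2, snR62 was −0.66 without R28P-30A replicate 2, and snR161 was −1.27 without WT replicate 1. snR39B was lost without any 1 WT or labelled R28P-30A culture, at −1.53 to −1.29.

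The mRNAs of proteins that bind, assemble or process snoRNAs were counted by list. In R28P-30B light fractions 0 of 4 genes for C/D core proteins (NOP1, NOP56, NOP58, SNU13) were higher and 1 lower, with a median of −0.13, and of 4 for H/ACA core proteins (CBF5, GAR1, NHP2, NOP10) 1 was higher and 0 lower, with a median of 0.02. Of 9 for assembly factors such as NAF1 and RSA1 2 were higher and 1 lower. Of 19 for processing, termination and turnover, such as RNT1, RRP6 and NAB3, 0 were higher and 10 lower, with a median of −0.24, beside 17.5% of all genes higher and 26.5% lower in that comparison. The lists are short and their counts were not tested against that share. Total extracts of R28P-30B had 0, 2, 0 and 4 lower in the same 4 lists and 0 higher in each, beside 11.2% of all genes higher and 17.2% lower.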

How the data were processed

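Messenger RNA was enriched on oligo(dT) from the total extract, light fraction and heavy fraction of 2 replicates per strain, and directional libraries were sequenced. The authors used STAR against R64, with reads of several positions retained, and featureCounts for the counts. Deposited were CPM (18 libraries, 7126 genes) and TPM (16 libraries, 7124 genes), both computed by the authors. The CPM values came out as whole reads (100% within 0.05 of a read), so reads per library were recovered. The deposited TPM was not used for levels: it lists 6 snoRNA genes with reads at 0 in 15 or 16 libraries (snR33 with 9154 reads), and its rank correlation with CPM per kb over snoRNA genes was 0.663 to 0.786. Fraction ratios also depended on the measure. In WT replicate 1 summed snoRNA TPM was 2812 in the total extract and 1273 in the light fraction, where CPM had 682 and 653. There snR44 had 110 and 108 TPM against 21.6 and 48.8 CPM, and snR24 32.3 and 47.2 TPM against 6.33 and 21.4 CPM.

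Labels gave each sample its strain, its fraction and its replicate number. The column names hold the letters A and B of the plasmid strains and not their full names. Strains were compared within a fraction with limma 3.58.1 (trend) on log2(CPM + 0.1), with 3 strains in a fit and genes over 0.2 CPM in the mean of 18 libraries (6376 genes, Benjamini-Hochberg over all, threshold 0.05). Fraction ratios were taken between libraries of the same strain and replicate number. Alternatives were edgeR 4.0.16 on the recovered reads, TMM, a pseudocount of 1, other filters, no trend, a replicate block and leaving out libraries. Python 3.11.15 and R 4.3.3 were used, and the fits were tested on simulated data. Named genes were every intron-hosted gene, the snoRNAs of rRNA cleavage, the spliceosomal RNAs, the 10 highest per kb, the genes under 3 reads and at most the 5 largest changes each way per comparison. The members and lists were chosen with earlier results of these data known. Sequences and positions come from RefSeq R64, where all 81 genes were matched.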

Additional observations from a re-analysis of the deposited data

Results flagged for a closer look

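The effect of the strain on the fraction ratio was itself tested, and these genes passed (limma, adjusted p under 0.05, all against WT). In the heavy over light ratio of R28P-30B, snR49 (−1.16), snR68 (−1.02), snR41 (−0.80) and snR33 (−0.57) were lower. In that ratio snR44 (1.46), snR18 (1.58), snR79 (1.73), snR24 (1.84) and snR52 (1.92) were higher. Of these, snR79 and snR52 had at most 7 reads in any heavy library of R28P-30B or WT. For libraries labelled R28P-30A, snR72 (−1.66), snR161 (−1.64), snR85 (−1.57), snR39B (−1.41) and snR62 (−1.18) were lower. In the light over total ratio of R28P-30B, snR38 (−1.91), snR18 (−1.86), snR44 (−1.70), snR80 (−1.58) and snR3 (−1.57) were lower, and snR76 (0.59), snR41 (0.61), snR55 (0.65), snR62 (0.76) and snR68 (0.77) were higher. Among libraries labelled R28P-30A, snR83 (0.91), snR38 (0.99), snR191 (1.06), snR80 (1.08) and snR17a (1.17) were higher. With 2 cultures in a group no library could be tested as standing apart from its group.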

How the results depend on the processing

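With 2 cultures per strain, counts of calls moved with the processing, and the cause was not tested. The 19 calls of R28P-30B against WT in total extracts were 8 with no filter, 11 without the trend and 9 to 20 on leaving out 1 replicate. The 33 calls labelled R28P-30A in light fractions were 21 under TMM and 18 to 30. The 12 calls in R28P-30B heavy fractions were 6 with no filter, 5 under TMM, 5 by edgeR and 3 to 11. The 18 calls in the heavy over light ratio of R28P-30B were 29 with a pseudocount of 1, 10 with no filter, 5 without the trend, 9 by edgeR and 7 to 21. The 15 of those labelled R28P-30A were 24 with that pseudocount, 8 with no filter, 7 under TMM, 6 by edgeR and 6 to 16. The 30 calls in the light over total ratio of R28P-30B were 18 without the trend and 14 to 35, and the 18 labelled R28P-30A were 4 and 5 to 22. Leaving out 1 replicate gave 35 to 48 in R28P-30B light fractions, 57 to 61 for light against total and 78 for heavy against light. Replicate numbers did not pair the cultures across strains (correlation of deviations −0.226 to 0.167). With a replicate block the calls were 22, 42 and 14 for R28P-30B in total, light and heavy libraries, 0, 25 and 0 for those labelled R28P-30A, 19 and 15 for heavy over light and 27 and 16 for light over total, and 60 and 78 with no replicate block for light against total and heavy against light. Summed snoRNA CPM under TMM was 100.05 in R28P-30B heavy fractions, 603, 769 and 123 in total, light and heavy libraries labelled R28P-30A, and 626 and 123 in WT light and heavy fractions. In WT total extract replicate 1 the median per length was 41.4 CPM per kb and 22.2 in the deposited TPM. Among the named genes the direction turned for 2 values. snR17a in light against total was −0.47 without the libraries labelled R28P-30A (0.03 with them). snR39 in the light over total ratio of R28P-30B, at 0 or 1 read, was 1.08 by edgeR. Of the 60 genes called in light against total, 1 turned without the libraries labelled R28P-30A. Depth limits the heavy fractions most, where snoRNA genes share 1640 to 3284 reads a library.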
